A study of Mus musculus with 6 samples.

Results

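The genes described here encode the voltage-gated ion channels of the left ventricle and their close relatives. They are the protein-coding genes of the deposited count table whose symbol begins with Kcn, Cacn, Hcn or Clcn, or with Scn and a digit, and whose reads summed to at least 60 over the 6 libraries. Of the 54929 rows of the table, 147 belong to these families and 82 reached that minimum. These 82 are 48 of 94 potassium channel genes, 14 of 26 calcium channel genes, 9 of 14 sodium channel genes, 3 of 4 pacemaker channel genes and 8 of 9 chloride channel or transporter genes. The summed count is the only measured value in that rule. All mice were wild-type C57BL/6 animals after TAC, transverse aortic constriction, in which the aorta is tied narrow so that the left ventricle pumps against high pressure. Antibodies were injected into the peritoneum at 10 mg/kg every 3 days from day 14 after surgery, and the time given for the samples is 5 weeks. One group received anti-PD-1 antibody, which blocks an inhibitory receptor of T cells, and the control group received anti-IgG antibody. Each group has 3 mRNA-seq libraries of left ventricle. There is no group without TAC or without antibody, and age and sex are not stated in the labels. The labels do not say whether the libraries came from separate animals, so each p-value speaks only for the spread among these samples, which may be technical.

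The cardiac action potential begins when voltage-gated sodium channels open and depolarise the myocyte. L-type calcium channels then carry the calcium that triggers contraction. Potassium channels end the action potential, and in the mouse ventricle fast transient outward and slowly inactivating currents do most of this work. Inward rectifiers hold the resting potential, channels coupled to ATP link it to metabolism, and leak channels add a background potassium conductance. Accessory subunits carry no current of their own but set how many channels reach the membrane and how they gate. These are transcripts of whole tissue, in which neither current nor protein was measured.

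Counted reads per library ranged from 18664362 to 21093163 under anti-PD-1 and from 18063344 to 19708578 under anti-IgG. The tissue label was read against markers. The 8 ventricular cardiomyocyte markers summed to 19243 to 33693 CPM under anti-PD-1, against 31569 to 39232 CPM under anti-IgG (CPM, the share of a library's reads scaled by TMM). Of these, Ryr2 rose and Tnnt2, Tnni3 and Myl2 fell. Of 6 macrophage markers tested, Adgre1 rose, C1qa fell and 4 did not pass. Of 7 endothelial markers Egfl7 fell and 6 did not pass. Cd79a of B cells fell among 5 lymphocyte markers tested, and none of 6 fibroblast markers passed. Fabp4, from the adipocyte list, fell, with 10754 reads under anti-PD-1 and 32237 under anti-IgG. Adipoq, Plin1 and Lep of that list had 0, 2 and 0 reads under anti-PD-1, against 14, 19 and 9 under anti-IgG. Cfd, also of that list, had 17 reads under anti-PD-1 and 40 under anti-IgG. Whether adipocytes share in the lower Fabp4 was not tested. The part of these shifts in the channel results was not tested. The atrial marker Sln had no read, Myl7 and Bmp10 had at most 10 reads over all libraries, and the fast skeletal myosin gene Myh4 had none. Over all 14807 genes tested, the log2 fold change was higher in genes that are longer in the authors' table (Spearman rho 0.49, a description across genes). Each channel gene reported by name as past the test is also given with that trend removed. In bulk tissue, fewer cells of a type and less RNA per cell cannot be told apart.

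Most channel genes did not pass the test, and those that did were mostly higher with anti-PD-1. Of the 82, 12 rose (14.6%), 2 fell (2.44%) and 68 did not reach an adjusted p under 0.05. Those that rose included the sodium channel genes Scn4a and Scn7a, the calcium channel genes Cacna1s and Cacna2d1, and the potassium channel genes Kcnj12, Kcnk3, Kcna7, Kcnn3 and Kcnma1. The 2 that fell were Kcnj8, the pore of the vascular ATP-sensitive potassium channel, and Kcne1, a partner of the slow delayed rectifier. Over all genes 10.3% rose and 10.8% fell, 21.1% in either direction. An unadjusted p under 0.05 in edgeR was found for 23 channel genes (28.0%). The share of all genes at that looser limit was not computed and is at least the 21.1% that passed after adjustment. The 23 are therefore not read as an excess. The median log2 fold change of the 82 was 0.25, against -0.03 for all genes tested, and 55 of the 82 (67.1%) were above 0, against 48.1% of all genes. In 19 of the 82 (23.2%) every anti-PD-1 library lay above every anti-IgG library, against 20.2% of all genes, and in 7 (8.54%) every anti-PD-1 library lay below, against 20.8%, with 41.0% of all genes apart in either direction.

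**Figure D1:**
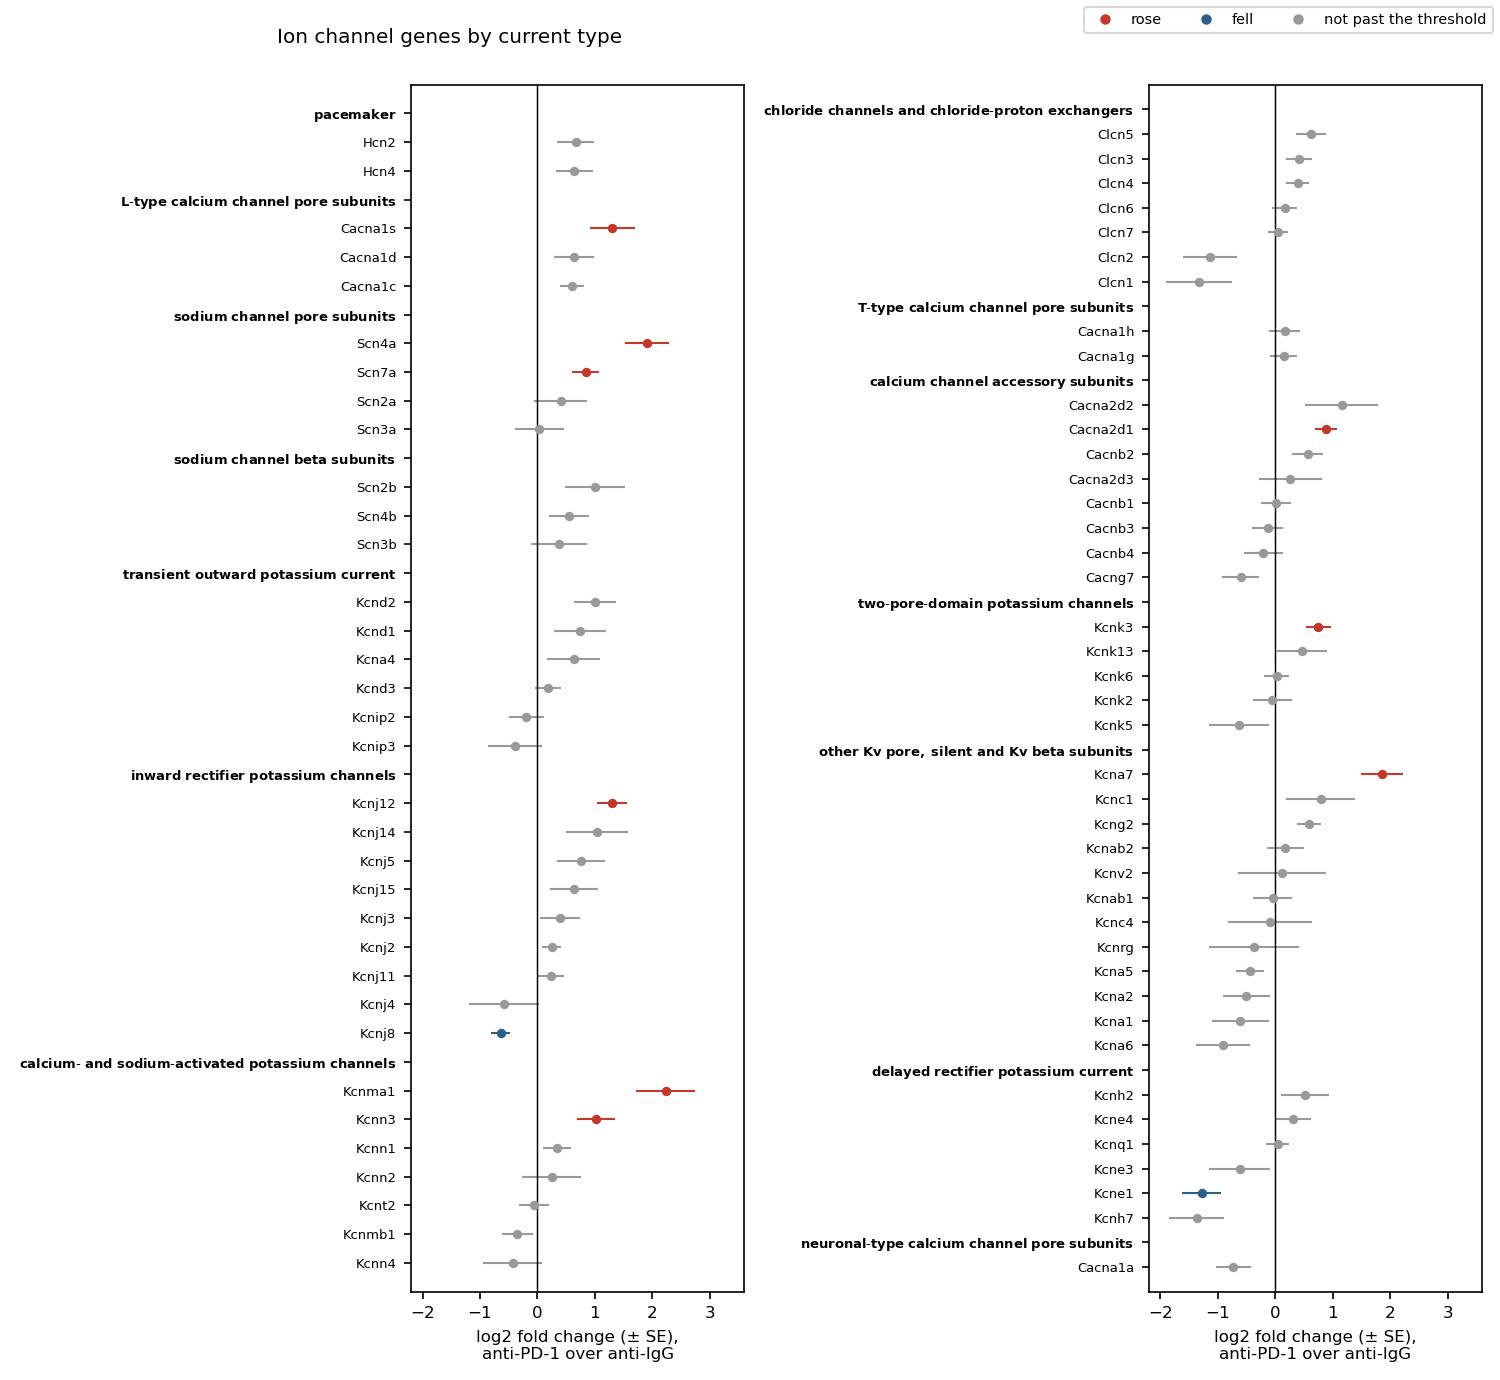
Log2 fold change of 75 of the channel genes, anti-PD-1 over anti-IgG (edgeR, ± SE), grouped by current type. Red genes rose (9), blue genes fell (2) and grey genes did not pass an adjusted p of 0.05; Kcnma1, Scn4a and Kcna7 have the highest values shown.

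Level per length differed widely among the channel genes. The authors' FPKM divides reads by gene length, so it is used wherever genes are compared with each other. Of the 82 genes, 40 had a mean of at least 1 FPKM over the 6 libraries, of which 8 rose and 1 fell, and 42 were under 1 FPKM, of which 4 rose and 1 fell. Of all tested genes with at least 1 FPKM 12.4% rose and 12.9% fell, and of those under 1 FPKM 3.85% rose and 4.18% fell. Kcnk3, a leak channel, averaged 64.1 ± 12.5 FPKM with anti-PD-1 and 37.6 ± 7.18 FPKM with anti-IgG (SD, n = 3 each). Kcng2, a silent subunit that forms channels only with other Kv pores, averaged 47.2 ± 0.975 FPKM with anti-PD-1 and 31 ± 8.79 FPKM with anti-IgG. In the anti-PD-1 libraries Kcnk3 lay above Kcng2 by more than their SDs, and in the anti-IgG libraries their SDs overlapped. Lower than both were Kcnj11, Kcnj8, Kcnip2 and Cacna2d1, with means between 16.6 and 20.9 FPKM. Their order differed between the groups: Kcnj8 averaged 16.2 ± 1.92 FPKM with anti-PD-1 and 24.8 ± 1.67 FPKM with anti-IgG, and Cacna2d1 averaged 21.6 ± 2.04 FPKM with anti-PD-1 and 11.5 ± 1.25 FPKM with anti-IgG. Kcnj11 and Kcnip2 overlapped with each other in both groups.

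**Figure D2:**
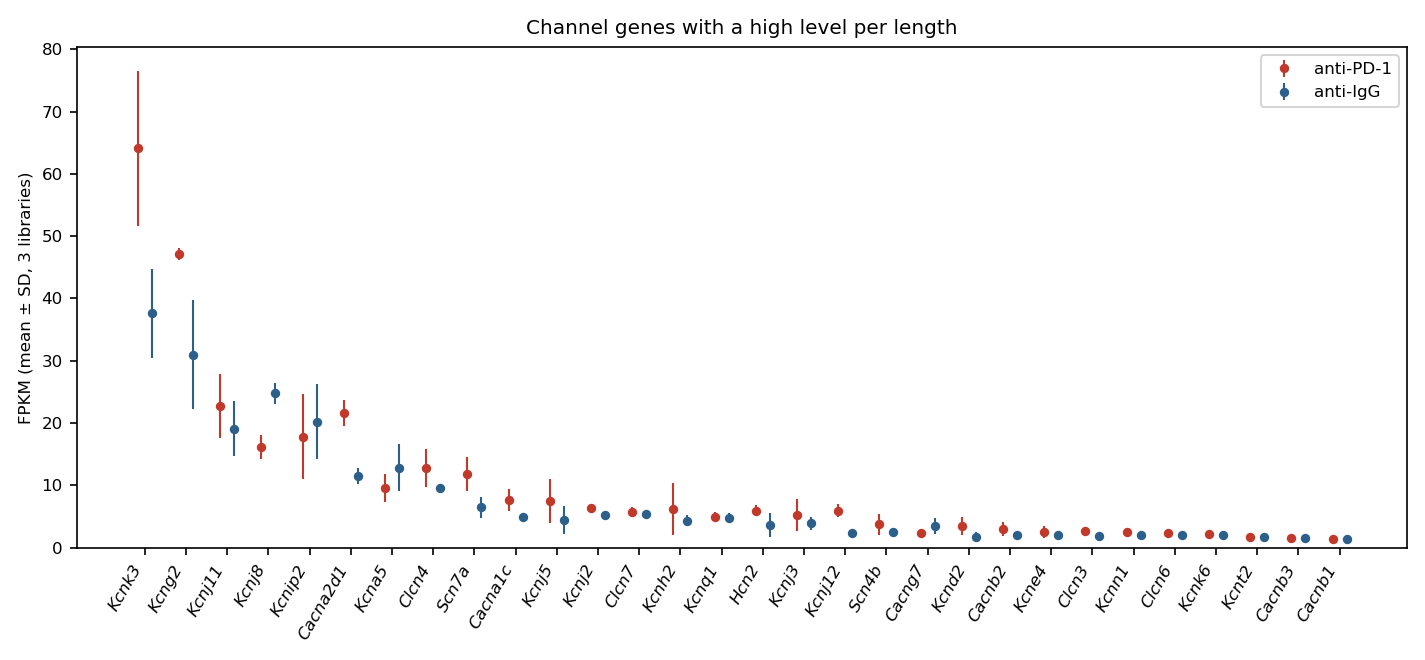
30 channel genes with a high mean FPKM, in that order, as mean ± SD of 3 libraries per group on a linear axis. Kcnk3 is the highest of those shown, at 64.1 FPKM with anti-PD-1 and 37.6 FPKM with anti-IgG.

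The genes nearest to the count minimum were Kcnrg with 68 reads, Kcnn4 with 69 and Kcnk5 with 70 inside it, and Scn10a and Kcnc2 with 59 and Kcnq5 with 54 outside it. The 65 family genes outside comprised 14 with no read, 28 with 1 to 10 reads and 23 with more than 10. In 4 of the 82 genes, 2 times the reads of the lower group would not have reached the minimum. Cacna2d2, Kcnj4 and Kcnk5 are among these and did not pass the test. The remaining gene, not reported by name, is counted among those that rose. It reached the minimum only through the anti-PD-1 group, where it is high. All 82 genes passed the filter on low counts used for the test.

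Among sodium channel genes, Scn4a and Scn7a rose with anti-PD-1. Scn4a, the sodium channel of skeletal muscle, had 15.2, 23 and 10.5 CPM under anti-PD-1, against 5.33, 2.18 and 5.46 CPM under anti-IgG. The lowest anti-PD-1 library was above the highest anti-IgG library, and it rose by a log2 fold change of 1.90 with SE 0.38 (adjusted p = 0.0106 in edgeR). Scn7a, which encodes a sodium-sensing relative that is not gated by voltage, had 115, 80.1 and 78.9 CPM under anti-PD-1, against 58.7, 58.9 and 35.9 CPM under anti-IgG. Its groups did not overlap, and the log2 fold change was 0.84 with SE 0.24 (adjusted p = 0.0308 in edgeR). Scn2a and Scn3a, pores best known from neurons, had means under 1 FPKM and log2 fold changes of 0.41 ± 0.46 (adjusted p = 0.555) and 0.03 ± 0.43 (adjusted p = 0.968).

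Sodium channel beta subunits set trafficking and gating of the pore, and Scn2b, Scn3b and Scn4b did not pass the test. Scn4b had 20.2, 28.9 and 10.2 CPM under anti-PD-1, against 17.6, 11.9 and 11 CPM under anti-IgG, highest in anti-PD-1 library 2, and a log2 fold change of 0.55 ± 0.34 (adjusted p = 0.271). The 8 skeletal muscle markers, read beside the higher Scn4a, summed to 5889 to 7967 CPM under anti-PD-1 and 2954 to 6277 CPM under anti-IgG. Nearly all of this came from Acta1, a muscle actin, and Ckm, muscle creatine kinase, both also made in the heart. Acta1 averaged 5992 ± 1201 CPM under anti-PD-1, against 4235 ± 1674 CPM under anti-IgG (SD, n = 3 each), with overlapping groups, and the log2 fold changes were 0.50 ± 0.33 (adjusted p = 0.294) for Acta1 and -0.09 ± 0.33 (adjusted p = 0.864) for Ckm. Tnnt3 had 7 reads under anti-PD-1 and 22 under anti-IgG, Tnni2 had 5 under anti-PD-1 and 33 under anti-IgG, and Myh1, Myh2, Myh4 and Pvalb had at most 10 reads each over all libraries. The part of these markers in the Scn4a result was not tested. Myelin and nerve markers summed to 17.8 to 23 CPM under anti-PD-1 and 18.1 to 26.3 CPM under anti-IgG beside Scn7a, and Sox10, the Schwann cell transcription factor, fell (log2 fold change -1.34, SE 0.41, adjusted p = 0.0419 in edgeR). The part of these cells in the Scn7a result was not tested. With the gene length trend removed, the log2 fold changes were 1.68 (adjusted p = 0.0257) for Scn4a and 0.61 (adjusted p = 0.0891) for Scn7a. With the trend in coding and 3' UTR length removed they were 1.46 (adjusted p = 0.0486) and 0.22 (adjusted p = 0.527) in the same order. Scn7a also missed the threshold without anti-PD-1 library 1 (adjusted p = 0.119), anti-IgG library 2 (adjusted p = 0.0814) or anti-IgG library 3 (adjusted p = 0.0927), while Scn4a passed it whichever library was left out.

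Among calcium channel genes, Cacna2d1 and Cacna1s rose and the main cardiac pore Cacna1c did not pass the test. Cacna2d1 encodes the alpha-2-delta subunit that brings L-type channels to the membrane. Its 250 bases upstream of the gene start, from RefSeq on GRCm38.p6 (chr5:15934441-15934690, plus strand), are shown because the gene rose and the stretch ends where the annotated gene begins. The capitals mark matches to the GC box, GGGCGG on either strand, which reads CCGCCC on the strand shown; adjacent matches can share a base.
Cacna2d1: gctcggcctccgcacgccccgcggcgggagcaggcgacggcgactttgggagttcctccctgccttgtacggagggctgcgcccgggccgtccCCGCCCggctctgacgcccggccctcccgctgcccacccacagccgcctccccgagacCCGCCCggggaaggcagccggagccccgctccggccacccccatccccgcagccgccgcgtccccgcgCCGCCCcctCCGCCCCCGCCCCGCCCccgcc
This stretch is 82.4% G and C, holds 36 CpG and has 6 such matches. A GC box was found in 32.9% of 27025 promoters of the same length and in 30 of the 59 channel genes matched to that table. Among those that rose, 8 were matched and 4 held one. Kcnn3, which also rose and whose stretch also ends at the gene start, held none and is not printed. A match is a description of letters, not a binding site. Cacna2d1 had 280.2, 318 and 255 CPM in the anti-PD-1 libraries, against 165, 162 and 135 CPM in the anti-IgG libraries. The groups did not overlap and the log2 fold change was 0.89 with SE 0.19 (adjusted p = 0.0121 in edgeR). It was 0.47 (adjusted p = 0.106) with the gene length trend removed and 0.22 (adjusted p = 0.468) with the coding and 3' UTR trend removed, and the threshold was also missed without anti-IgG library 2 (adjusted p = 0.0544).

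Cacna1s, the L-type pore of skeletal muscle, had 8.82, 11.2 and 4.32 CPM under anti-PD-1, against 4.81, 2.46 and 2.55 CPM under anti-IgG. Anti-PD-1 library 3 lay below anti-IgG library 1, so its groups overlapped, and the log2 fold change was 1.30 with SE 0.39 (adjusted p = 0.0389 in edgeR). Its call was lost without anti-PD-1 library 1 (adjusted p = 0.11), anti-PD-1 library 2 (adjusted p = 0.109), anti-IgG library 2 (adjusted p = 0.151) or anti-IgG library 3 (adjusted p = 0.122), and with either length trend removed, at 1.13 (adjusted p = 0.08) and 1.02 (adjusted p = 0.128). It was also lost with limma-voom (adjusted p = 0.0588) and with limma-trend on log2 FPKM with a pseudocount of 1 (adjusted p = 0.0642) or 0.1 (adjusted p = 0.0644). Annotated exons of an antisense gene cover 1309 of its exonic bases; no read was counted for that gene. Cacna1c had 165, 219 and 134 CPM under anti-PD-1, against 113, 122 and 105 CPM under anti-IgG. All 3 anti-PD-1 libraries were above the anti-IgG libraries, yet the log2 fold change of 0.61 ± 0.21 (adjusted p = 0.06) missed the threshold. It passed with DESeq2 (adjusted p = 0.0235) and with no count filter in edgeR (adjusted p = 0.0335), and with the gene length and the coding and 3' UTR length trends removed it was 0.08 (adjusted p = 0.82) and -0.39 (adjusted p = 0.278). Cacnb2, the main cardiac beta subunit, had 33.4, 62.3 and 33.7 CPM under anti-PD-1, against 36, 28.1 and 23.3 CPM under anti-IgG, and Cacng7, a gamma subunit, had 4.54, 6.32 and 7.16 CPM under anti-PD-1, against 4.97, 11.5 and 11 CPM under anti-IgG. Both overlapped between groups, with log2 fold changes of 0.56 ± 0.27 (adjusted p = 0.15) and -0.60 ± 0.33 (adjusted p = 0.204). In edgeR Cacnb2 passed with no count filter (adjusted p = 0.0448) and Cacng7 passed as lower without anti-IgG library 1 (adjusted p = 0.0341).

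The T-type pores, which open at more negative voltages and are re-expressed in loaded hearts, gave small values. Cacna1g had 12.4, 9.48 and 15 CPM under anti-PD-1, against 9.99, 9.79 and 13.6 CPM under anti-IgG, and Cacna1h had 8.28, 9.32 and 4.95 CPM under anti-PD-1, against 6.3, 7.22 and 6.61 CPM under anti-IgG. The groups overlapped, and the log2 fold changes were 0.15 ± 0.24 (adjusted p = 0.688) and 0.16 ± 0.27 (adjusted p = 0.699). Cacna1a, a pore best known from nerve endings, had 2.69, 2.14 and 3.6 CPM under anti-PD-1, against 5.07, 4.59 and 4.36 CPM under anti-IgG. Its libraries did not overlap, but the log2 fold change of -0.73 ± 0.31 (adjusted p = 0.111) did not pass; with the gene length trend removed it was -1.12 (adjusted p = 0.041). The remaining 5 accessory genes and Cacna1d had log2 fold changes between -0.21 (Cacnb4) and 1.15 (Cacna2d2), and none passed.

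None of the 6 genes of the transient outward current, the main early repolarising current of the mouse ventricle, passed in edgeR as reported. Kcnd2 passed under some alternatives, also within edgeR. Kcnd2, the fast pore of this current, had 18.5, 27.5 and 11 CPM under anti-PD-1, against 14.1, 7.27 and 6.96 CPM under anti-IgG. Kcnd3, a second pore, had 14.5, 9.81 and 11.5 CPM under anti-PD-1, against 12.2, 10.6 and 8.76 CPM under anti-IgG. Kcnip2, the calcium-sensing subunit that both pores need, had 61.9, 94 and 41.5 CPM under anti-PD-1, against 97.6, 54 and 74.5 CPM under anti-IgG. Kcnd2 and Kcnip2 varied more within the groups than Kcnd3, and both were highest in anti-PD-1 library 2 and lowest in anti-PD-1 library 3. The log2 fold changes were 1.00 ± 0.37 (adjusted p = 0.08) for Kcnd2, 0.18 ± 0.23 (adjusted p = 0.595) for Kcnd3 and -0.20 ± 0.30 (adjusted p = 0.675) for Kcnip2. Kcnd2 passed with DESeq2 (adjusted p = 0.0248), with no count filter in edgeR (adjusted p = 0.00077), with a replicate block in edgeR (adjusted p = 0.0384), and without anti-PD-1 library 3 (adjusted p = 0.0364) or anti-IgG library 1 (adjusted p = 0.0198); over all alternatives its adjusted p ranged from 0.00077 to 0.259. Kcna4, the slow pore, had 1.7, 2.14 and 0.961 CPM under anti-PD-1, against 1.33, 1.01 and 0.751 CPM under anti-IgG, with a log2 fold change of 0.63 ± 0.46 (adjusted p = 0.342). Kcnd1 and Kcnip3 gave 0.74 ± 0.45 (adjusted p = 0.256) and -0.39 ± 0.46 (adjusted p = 0.571).

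In the delayed rectifier group, 1 gene of 7 fell and none rose. Kcne1, the small subunit that slows Kcnq1 channels, had 1.45, 2.2 and 1.35 CPM in the anti-PD-1 libraries, against 3.69, 4.75 and 3.71 CPM in the anti-IgG libraries. Every anti-PD-1 library was below every anti-IgG library, and the log2 fold change was -1.28 with SE 0.35 (adjusted p = 0.0261 in edgeR). Its pore partner Kcnq1 had 21, 25.2 and 18.7 CPM under anti-PD-1, against 20.1, 17.8 and 25 CPM under anti-IgG, with overlapping groups and a log2 fold change of 0.05 ± 0.20 (adjusted p = 0.895). Kcnh2, the pore of the rapid delayed rectifier, had 19.6, 57.8 and 19.6 CPM under anti-PD-1, against 26.9, 17.6 and 23.3 CPM under anti-IgG. A single library, anti-PD-1 library 2, stood high, and the log2 fold change was 0.51 ± 0.41 (adjusted p = 0.399). Kcne3, Kcne4 and Kcnh7 gave log2 fold changes between -1.37 (Kcnh7) and 0.32 (Kcne4), and Kcnh7 passed as lower with upper quartile scaling or with either length trend removed. The Kcne1 call was lost without anti-PD-1 library 1 (adjusted p = 0.0939), anti-PD-1 library 3 (adjusted p = 0.0857), anti-IgG library 2 (adjusted p = 0.105) or anti-IgG library 3 (adjusted p = 0.053). With the gene length and the coding and 3' UTR trends removed the log2 fold changes were -1.14 (adjusted p = 0.0545) and -1.04 (adjusted p = 0.0896).

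Among the remaining Kv pores, silent subunits and beta subunits, Kcna7 rose. Kcna7, a Shaker-type pore of striated muscle, had 6.88, 5.04 and 3.22 CPM under anti-PD-1, against 1.49, 1.17 and 1.5 CPM under anti-IgG. It rose without overlap, and the log2 fold change was 1.86 with SE 0.37 (adjusted p = 0.00952 in edgeR). Kcna5, the pore of an ultrarapid current, had 24.1, 26.7 and 36.3 CPM under anti-PD-1, against 29.1, 52.9 and 36.7 CPM under anti-IgG. Kcng2 had 146, 155 and 147 CPM under anti-PD-1, against 89, 78.4 and 131 CPM under anti-IgG. The groups overlapped for Kcna5 and not for Kcng2, and the log2 fold changes were -0.45 ± 0.24 (adjusted p = 0.203) and 0.59 ± 0.21 (adjusted p = 0.071). Kcng2 passed with the gene length trend removed, at 0.77 (adjusted p = 0.0373), with DESeq2 (adjusted p = 0.0387), with no count filter in edgeR (adjusted p = 0.0417) and without anti-IgG library 3 (adjusted p = 0.0306). With the gene length trend removed Kcna7 gave 2.25 (adjusted p = 0.0101), and with the coding and 3' UTR trend removed it gave 1.98 (adjusted p = 0.0212). The Kcna7 transcript used for that second length has a 3' UTR of 6 bp. Leaving out a library ended the call of Kcna7 only without anti-IgG library 2 (adjusted p = 0.0556).

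Inward rectifiers moved in both directions: Kcnj12 rose and Kcnj8 fell among 9 genes. Kcnj8 encodes the pore of ATP-sensitive channels of vascular smooth muscle and pericytes. Its 250 bases upstream (chr6:142571615-142571864, minus strand, RefSeq on GRCm38.p6) are printed beside those of Cacna2d1 because it is the 1 matched gene that fell; no capitals appear, since none of the motifs searched was found.
Kcnj8: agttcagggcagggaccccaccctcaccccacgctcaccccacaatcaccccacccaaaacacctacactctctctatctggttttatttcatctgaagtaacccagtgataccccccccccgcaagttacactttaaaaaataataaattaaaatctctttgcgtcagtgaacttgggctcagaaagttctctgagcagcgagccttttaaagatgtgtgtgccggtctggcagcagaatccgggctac
These bases are 49.2% G and C with 6 CpG. Besides the GC box, the motifs were the TATA box TATAAA (13.0% of all promoters, 2 of the 59 channel genes), a GATA site AGATAA (10.3%, 1 of 59), an E-box CACGTG (6.05%, 7 of 59), an NFAT site TGGAAA (18.7%, 8 of 59) and a MEF2 site (0.144%, 1 of 59), read on both strands.

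Kcnj8 had 38.9, 43.2 and 48.7 CPM in the anti-PD-1 libraries, against 70.1, 63.2 and 70.1 CPM in the anti-IgG libraries. All 3 anti-PD-1 libraries were below all anti-IgG libraries, and the log2 fold change was -0.64 with SE 0.17 (adjusted p = 0.0242 in edgeR). Kcnj11, the ATP-sensitive pore of cardiac myocytes, had 92.2, 108 and 65.6 CPM under anti-PD-1, against 89.7, 56.8 and 79.3 CPM under anti-IgG, and its log2 fold change was 0.23 ± 0.23 (adjusted p = 0.494). Smooth muscle and pericyte markers summed to 2464 to 2795 CPM under anti-PD-1 and 2044 to 2513 CPM under anti-IgG, beside the lower Kcnj8. Of these 8 markers Notch3 rose (log2 fold change 1.06, SE 0.20, adjusted p = 0.00864 in edgeR) and none fell, and the summed ranges of the groups overlapped. Abcc9, the regulatory subunit that pairs with these pores, gave 0.33 ± 0.24 (adjusted p = 0.332). The Kcnj8 call was lost without anti-PD-1 library 1 (adjusted p = 0.108), anti-PD-1 library 2 (adjusted p = 0.0586), anti-IgG library 2 (adjusted p = 0.0691) or anti-IgG library 3 (adjusted p = 0.0615), and with the length trends removed at -0.36 (adjusted p = 0.172) and -0.47 (adjusted p = 0.0997).

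Kcnj12, a strong inward rectifier of the resting current, had 16.7, 21.1 and 14.3 CPM in the anti-PD-1 libraries, against 7.84, 4.98 and 8.31 CPM in the anti-IgG libraries. It rose with no overlap and a log2 fold change of 1.30 with SE 0.25 (adjusted p = 0.00899 in edgeR). Kcnj2, the main pore of the same current, had 37, 37.1 and 35.9 CPM under anti-PD-1, against 34.6, 29.6 and 28.5 CPM under anti-IgG. Its groups were also apart, by a smaller step, and the log2 fold change was 0.25 ± 0.17 (adjusted p = 0.304). Kcnj3 and Kcnj5 form the channel opened by acetylcholine. Kcnj3 had 24.9, 45.4 and 16.3 CPM under anti-PD-1, against 28.3, 20.2 and 17.5 CPM under anti-IgG, and Kcnj5 had 33.8, 57.4 and 21.4 CPM under anti-PD-1, against 34.9, 15.1 and 16.7 CPM under anti-IgG. Both peaked in anti-PD-1 library 2 and overlapped between groups, with log2 fold changes of 0.39 ± 0.34 (adjusted p = 0.44) and 0.75 ± 0.41 (adjusted p = 0.22). In edgeR Kcnj5 passed with no count filter (adjusted p = 0.0107) and without anti-IgG library 1 (adjusted p = 0.0404). An uncharacterised transcript covers 31.1% of the exonic bases of Kcnj3 and had 11 reads under anti-PD-1 and 5 under anti-IgG. Kcnj12 passed with either length trend removed, at 1.53 (adjusted p = 0.00914) and 1.45 (adjusted p = 0.0137), and missed the threshold only without anti-IgG library 2 (adjusted p = 0.0502).

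Among K2P leak channels, which pass potassium at any voltage, Kcnk3 rose and the other 4 genes did not pass. Kcnk3, inhibited by extracellular acid, had 314, 285 and 210.2 CPM in the anti-PD-1 libraries, against 187, 129 and 166 CPM in the anti-IgG libraries. Each anti-PD-1 library was above each anti-IgG library, and the log2 fold change was 0.75 with SE 0.22 (adjusted p = 0.0357 in edgeR). Kcnk6 had 10.2, 9 and 9.51 CPM under anti-PD-1, against 7.53, 9.96 and 10.7 CPM under anti-IgG, with a log2 fold change of 0.03 ± 0.22 (adjusted p = 0.943); Kcnk2, Kcnk5 and Kcnk13 ranged from -0.63 to 0.46. Kcnk3 gave 0.78 (adjusted p = 0.0467) with the gene length trend removed and 0.53 (adjusted p = 0.137) with the coding and 3' UTR trend removed. It lost its call without anti-PD-1 library 1 (adjusted p = 0.125), anti-PD-1 library 2 (adjusted p = 0.07), anti-IgG library 2 (adjusted p = 0.154) or anti-IgG library 3 (adjusted p = 0.0854). A transcript on the opposite strand covers 5.76% of its exonic bases and had 719 reads under anti-PD-1 and 651 under anti-IgG.

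Channels opened by internal calcium or sodium comprise 7 genes, of which 2 rose. Kcnma1, the pore of the large-conductance calcium-activated channel, had 2.74, 2.14 and 3.99 CPM in the anti-PD-1 libraries, against 0.256, 0.559 and 1.05 CPM in the anti-IgG libraries. Its groups did not overlap, and the log2 fold change was 2.23 with SE 0.52 (adjusted p = 0.0155 in edgeR). Kcnmb1, the subunit that tunes this pore in smooth muscle, had a log2 fold change of -0.35 ± 0.28 (adjusted p = 0.383). The smooth muscle and pericyte markers, given with Kcnj8, include 1 that rose, and their part in the Kcnma1 result was not tested. Kcnn3, a small-conductance channel, had 11, 4.66 and 6.34 CPM under anti-PD-1, against 3.43, 4.03 and 3.41 CPM under anti-IgG. It passed narrowly, at 1.02 with SE 0.33 (adjusted p = 0.0498 in edgeR), with anti-PD-1 library 1 far above the rest. Kcnn1 had 13, 13.3 and 10.9 CPM under anti-PD-1, against 10.1, 7.05 and 12.2 CPM under anti-IgG, Kcnn2 had 4.09, 11.3 and 2.45 CPM under anti-PD-1, against 7.07, 3.52 and 4.36 CPM under anti-IgG, and Kcnt2, opened by sodium, had 15.4, 11.5 and 10.8 CPM under anti-PD-1, against 14.6, 16.1 and 8.76 CPM under anti-IgG. All 3 overlapped, with log2 fold changes of 0.34 ± 0.24 (adjusted p = 0.327), 0.25 ± 0.52 (adjusted p = 0.768) and -0.07 ± 0.26 (adjusted p = 0.879) in that order. Kcnma1 lost its call without anti-PD-1 library 3 (adjusted p = 0.0548) or anti-IgG library 2 (adjusted p = 0.0752), with limma-trend on log2(FPKM + 1) (adjusted p = 0.0813), and with the length trends removed at 1.71 (adjusted p = 0.0669) and 1.36 (adjusted p = 0.156). Kcnn3 lost its call without anti-PD-1 library 1 (adjusted p = 0.245), anti-PD-1 library 3 (adjusted p = 0.0761), anti-IgG library 1 (adjusted p = 0.0871), anti-IgG library 2 (adjusted p = 0.129) or anti-IgG library 3 (adjusted p = 0.126), and with the length trends removed at 0.64 (adjusted p = 0.21) and 1.25 (adjusted p = 0.0563). It kept its call in 4 of 17 alternatives, and lost it too with upper quartile scaling (adjusted p = 0.0721), a minimum of 1 CPM in 3 libraries (adjusted p = 0.051), a replicate block (adjusted p = 0.0618), limma-voom (adjusted p = 0.0779) and limma-trend on log2 FPKM with a pseudocount of 1 (adjusted p = 0.111) or 0.1 (adjusted p = 0.114).

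In edgeR as reported, neither the pacemaker channel genes Hcn2 and Hcn4 nor any of the CLC genes passed. Hcn2, the more abundant ventricular pacemaker pore, had 19.6, 23.8 and 17 CPM under anti-PD-1, against 8.76, 9.01 and 20.3 CPM under anti-IgG. Hcn4, the sinoatrial form, had 5.23, 6.43 and 3.31 CPM under anti-PD-1, against 2.71, 3.64 and 3.25 CPM under anti-IgG. For Hcn2, anti-IgG library 3 lay within the range of the anti-PD-1 libraries, and the log2 fold changes were 0.66 ± 0.32 (adjusted p = 0.154) for Hcn2 and 0.64 ± 0.32 (adjusted p = 0.175) for Hcn4. In edgeR Hcn2 passed with no count filter (adjusted p = 0.034) and without that library (adjusted p = 0.0219). Of the conduction system markers, Cntn2 rose, at 2.39 ± 1.62 CPM under anti-PD-1, against 0.752 ± 0.12 CPM under anti-IgG (SD, n = 3 each), and 4 others did not pass. Clcn4, an endosomal exchanger, had 146, 98.6 and 101 CPM under anti-PD-1, against 91.6, 89.9 and 82.7 CPM under anti-IgG. Clcn7, its lysosomal relative, had 34.5, 34.6 and 26.7 CPM under anti-PD-1, against 31.9, 30.3 and 30.8 CPM under anti-IgG. Clcn3 had 54.8, 47.9 and 39.2 CPM under anti-PD-1, against 45.8, 34.5 and 25.9 CPM under anti-IgG. Their log2 fold changes were 0.39 ± 0.20 (adjusted p = 0.175), 0.04 ± 0.17 (adjusted p = 0.879) and 0.42 ± 0.23 (adjusted p = 0.2) in that order. Clcn1 and Clcn2 had log2 fold changes of -1.33 and -1.14, both under 5 CPM in every library; Clcn1 passed as lower with no count filter and without anti-IgG library 3.

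Libraries within the anti-PD-1 group also differed. Of the 82 genes, 38 (46.3%) were highest in anti-PD-1 library 2, against 41.3% of all genes tested, and 38 (46.3%) were lowest in anti-PD-1 library 3, against 32.5%. Both held for 29 of the 82 (35.4%), against 18.7% of all genes. In 15 of them (18.3%, against 2.99% of all genes) the difference was also at least 2-fold, among them Kcnh2, Kcnj3, Kcnj5, Kcnn2, Kcnd2, Kcnip2, Scn4a and Scn4b, a grouping chosen after the values were seen. In the anti-IgG group 35 genes were highest in library 1, 19 in library 2 and 28 in library 3.

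**Figure D3:**
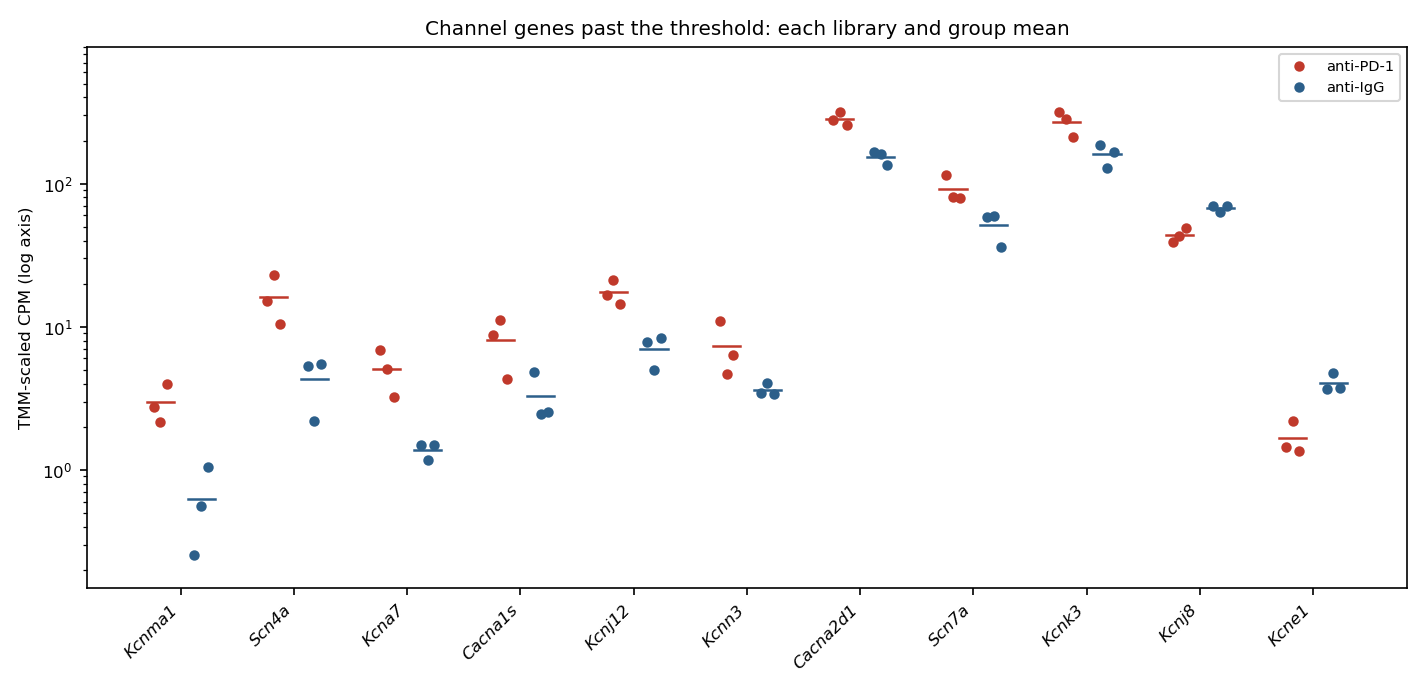
TMM-scaled CPM of 11 channel genes past the threshold on a log axis, with each library as a point and the group mean as a line, anti-PD-1 in red and anti-IgG in blue. Of those shown, Cacna1s alone overlaps between its groups, and Kcnj8 and Kcne1 are the 2 with lower values under anti-PD-1.

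Ratios between partner genes within a library do not depend on its scaling. Of 7 ratios reported, 4 separated the groups and the other 3 overlapped. In 3 of these 4 the first gene, Kcne1, Kcnj8 or Kcnj12, had itself passed the test without overlap. Those ratios largely restate these calls and are not separate evidence. Among all single genes tested, 41.0% had groups apart in either direction. Kcne1 over Kcnq1 was 0.0687, 0.087 and 0.072 under anti-PD-1 and 0.184, 0.266 and 0.148 under anti-IgG. Kcnj8 over Kcnj11 was 0.422, 0.401 and 0.742 under anti-PD-1 and 0.781, 1.11 and 0.883 under anti-IgG. Both were lower with anti-PD-1. Kcnj12 over Kcnj2 was 0.45, 0.569 and 0.399 under anti-PD-1 and 0.226, 0.168 and 0.291 under anti-IgG, higher with anti-PD-1. Kcnip2 over the sum of Kcnd2 and Kcnd3 was 1.88, 2.52 and 1.85 under anti-PD-1 and 3.71, 3.02 and 4.74 under anti-IgG, lower with anti-PD-1. Kcnd2 over Kcnd3 was 1.27, 2.8 and 0.95 under anti-PD-1 and 1.16, 0.684 and 0.794 under anti-IgG, and its groups overlapped, as did those of Cacna1d and of Cacna2d1 over Cacna1c. The members of a ratio can differ in length, as do Cacna2d1 at 12416 bp and Cacna1c at 21191 bp, and the length trend was not removed here. With 3 libraries a side, an exact permutation test of one ratio cannot go below p = 0.1. The reads of all family genes together were 2796, 2382 and 2069 under anti-PD-1 and 1837, 1403 and 1637 under anti-IgG in CPM without TMM scaling. The groups did not overlap. Such a sum is set mainly by the few genes with the most reads, so it does not show a rise shared across the family.

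**Figure D4:**
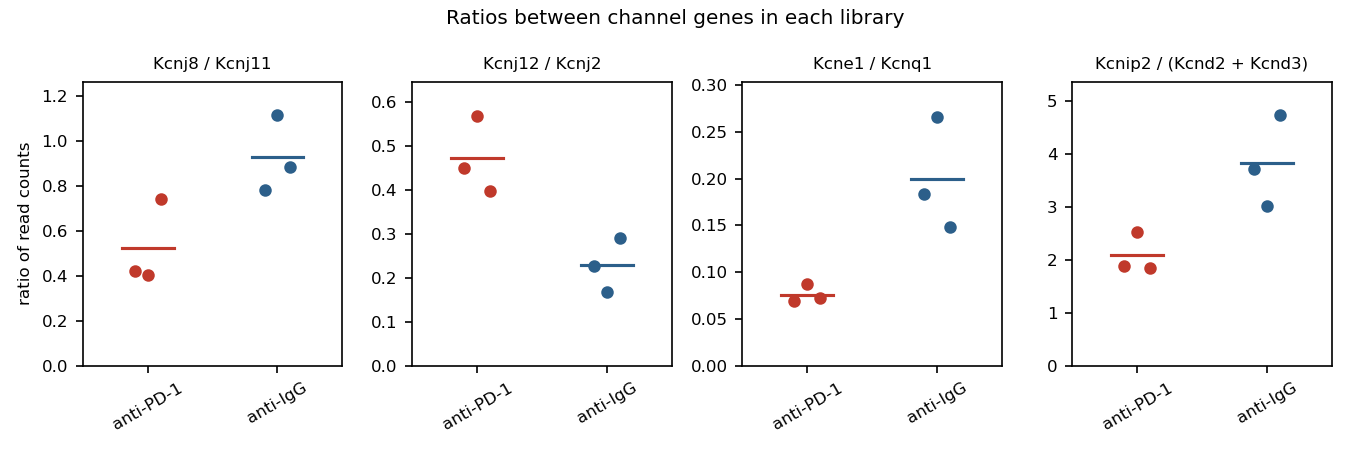
4 read count ratios of channel genes in each library, with the group mean as a line, anti-PD-1 left and anti-IgG right, each on its own linear axis from 0. The groups do not overlap in any of the 4 panels, and only Kcnj12 over Kcnj2 is higher with anti-PD-1.

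The length of the genes bears on how these counts read. The 82 channel genes had a median length of 5289 bp, against 4163 bp for all genes tested. Among channel genes of at least that length, 9 of 41 rose (22.0%) and 0 fell, against 20.8% and 2.85% of all genes of that length. Among the shorter 41, 3 rose (7.32%) and 2 fell (4.88%), against 4.3% and 15.3% of all such genes. Within the channel genes, the log2 fold change followed gene length with a Spearman rho of 0.28 and coding plus 3' UTR length with 0.33; over all genes the values were 0.49 and 0.63 (descriptions across genes, which share libraries). Kcna7 and Kcnj12, at 2182 and 2750 bp, were the shortest genes that rose, and Kcnj8 and Kcne1, at 2548 and 3214 bp, were the 2 that fell.

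**Figure D5:**
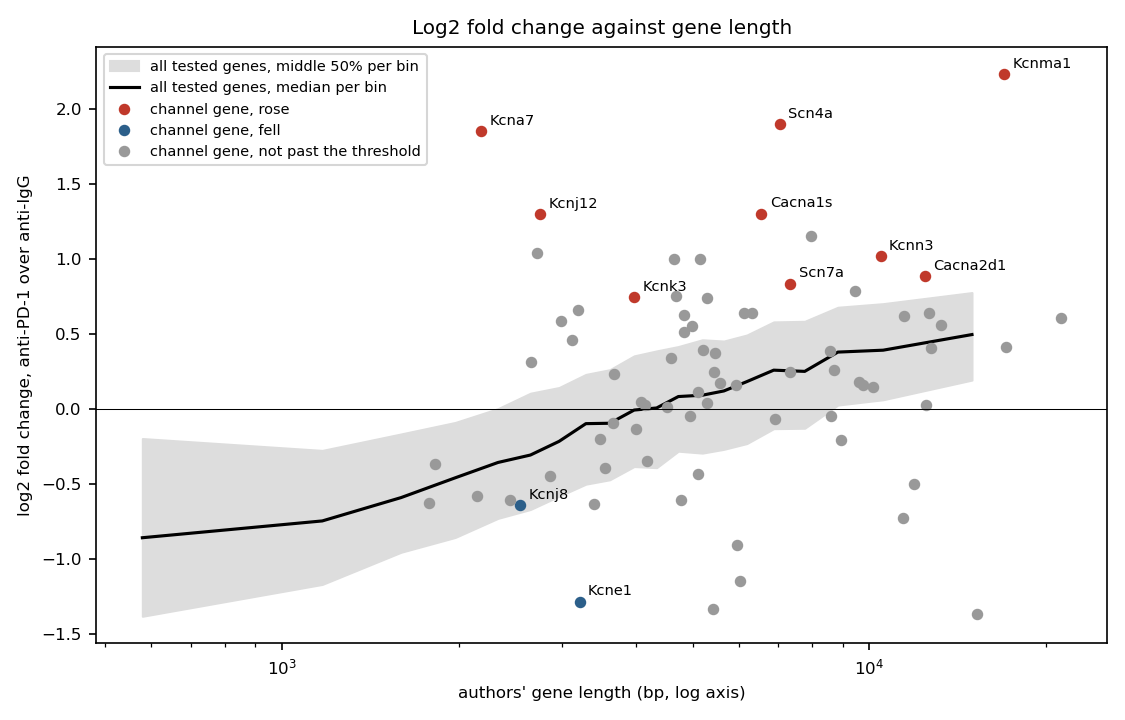
Log2 fold change of 75 channel genes against the authors' gene length on a log axis, over the median (line) and middle 50% of the values (grey) of all tested genes in 20 length bins. Genes past the threshold are named; the 9 that rose lie above the grey band (Kcnma1 past its right end), Kcne1 lies below it and Kcnj8 lies inside it.

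Genes that work with these channels were read from 5 lists. Their counts stand beside the 10.3% of all genes that rose and the 10.8% that fell, and beside the 20.8% that rose among genes of at least 5289 bp. Of 20 pumps and exchangers 4 rose and 1 fell, and 2 of the 11 that reach this length rose. Slc8a1, the sodium-calcium exchanger, averaged 142 ± 22 CPM under anti-PD-1, against 19.3 ± 7.24 CPM under anti-IgG (SD, n = 3 each). The log2 fold change was 2.88 with SE 0.28 (adjusted p = 0.00123 in edgeR). Slc8a1 is 2934 bp long in the authors' table, but its coding and 3' UTR lengths in GENCODE M21 are 2874 and 15589 bp. No value with a length trend removed is given for it here. Fxyd1, which restrains the sodium pump, averaged 49.7 ± 18.2 CPM under anti-PD-1, against 144 ± 47.3 CPM under anti-IgG and fell (log2 fold change -1.53, SE 0.33, adjusted p = 0.0143 in edgeR). Of 12 calcium release genes tested 2 rose: Ryr2, the release channel of the sarcoplasmic reticulum, averaged 1359 ± 238 CPM under anti-PD-1, against 518 ± 94.8 CPM under anti-IgG (log2 fold change 1.39, SE 0.24, adjusted p = 0.00644 in edgeR), and Jph1, a junction protein, gave 0.84 with SE 0.27 (adjusted p = 0.0477 in edgeR). Of the 7 long genes of that list 1 rose. Of 27 other membrane channels 3 rose, among them Piezo1, opened by stretch (log2 fold change 0.78, SE 0.18, adjusted p = 0.0152 in edgeR), and Tpcn1, an endolysosomal channel (log2 fold change 0.70, SE 0.16, adjusted p = 0.0161 in edgeR). All 3 are among its 20 long genes. Of 18 channel partners and anchors 5 rose and 1 fell, and 3 of its 6 long genes rose. Akap6 and Akap9, which anchor kinases at channel complexes, gave 0.97 with SE 0.22 (adjusted p = 0.0144 in edgeR) and 0.84 with SE 0.19 (adjusted p = 0.0145 in edgeR). Of 11 transcription factors with known channel targets 2 rose, Nfatc3 (log2 fold change 0.76, SE 0.18, adjusted p = 0.0185 in edgeR) and Foxo1 (log2 fold change 0.79, SE 0.25, adjusted p = 0.0458 in edgeR), both among its 4 long genes. The median log2 fold changes of these 5 lists were 0.40, 0.46, 0.16, 0.31 and -0.05 in the order given, against -0.03 for all genes.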

How the data were processed

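For 6 left ventricle libraries the authors deposited raw counts and FPKM values per gene. The submitters' processing notes name featureCounts and mm10; aligner and strandedness of counting are not given in the sources used here. Per gene, the authors' FPKM divide counts by gene length and a library constant whose derivation is not stated. Of the count table's rows, 397 have no gene name. Without stated strand, reads of genes that overlap on opposite strands cannot be told apart; 30 channel genes share exonic bases with another gene, 8 of them over at least 10%.

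The counts were compared in R 4.3.3 by edgeR 4.0.16 (filterByExpr, TMM scaling, robust quasi-likelihood F test, 2-sided), with Benjamini-Hochberg adjusted p under 0.05 over all 14807 genes; this was tested on simulated data. SEs were derived from log2 fold change and F statistic (fold change over root F). Same-group libraries differed beyond counting noise (chi-square per degree of freedom 47.3 to 76.1). Alternatives were RLE and upper quartile scaling, no filter or at least 1 CPM in 3 libraries, DESeq2 1.42.0, limma 3.58.1 (voom, and trend on log2 FPKM with pseudocounts of 1 and 0.1), a replicate block, removal of length trends (natural spline with 5 degrees of freedom, prior count 2, added as offset) and leaving out each library. Coding and 3' UTR lengths came from GENCODE M21, whose start and end match those of all 82 genes. Named genes were those past the threshold, the 2 highest in FPKM of each current type, and those with a textbook role in the ventricle; some channel genes that count in the totals are not reported here. The members, current types and lists were chosen with earlier results of these data known.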

Additional observations from a re-analysis of the deposited data

How the results depend on the processing

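Every alternative was compared with the edgeR result of 3118 called genes, 12 channel genes that rose, 2 that fell and a median channel log2 fold change of 0.25. With the gene length trend removed these were 1526 genes, 6, 2 and 0.085, and with the coding and 3' UTR length trend removed they were 840 genes, 3, 1 and 0.023. Over the 6 fits that each left out a library, the counts ranged from 532 to 3646 genes, from 2 to 12 channel genes that rose and from 0 to 3 that fell, and the median from 0.21 to 0.39; the lowest counts of all genes and of rises came without anti-IgG library 2, after which 2 channel genes passed, Scn4a among them. The median was 0.16 with upper quartile scaling, which moved the median of all genes to -0.12 and the share of called genes that rose to 36.8% from 48.9%, and 0.086 on log2(FPKM + 1). Without a count filter 18 channel genes rose and 3 fell, and with DESeq2 15 rose and 2 fell. Fitted together over all alternatives, the 11 called genes reported by name kept their direction in 195 of 195 fits and their call in 141. Replicate numbers are shared by the groups, and the labels do not say whether they pair the libraries. The deviations from the group mean correlated at 0.15, -0.16 and 0.23 for same-numbered libraries and from -0.38 to 0.23 for different-numbered ones. Deviations cancel out within each group of 3 libraries, so these values cannot decide whether the numbers pair them. A replicate block gave 3367 genes, with 12 channel genes that rose and 2 that fell. Kcnd2 was gained (0.98, edgeR adjusted p = 0.0384) and Kcnn3 lost (0.94, edgeR adjusted p = 0.0618). Of 499 fits of the 28 named genes not past the threshold, 448 kept direction and side, 18 passed and 33, over 14 genes, turned sign; the cause was not tested. With the gene length trend removed these were Cacna1g (-0.23), Cacna1h (-0.19), Clcn3 (-0.045), Clcn7 (-0.040) and Kcnd3 (-0.15). With the coding and 3' UTR trend removed they were Cacna1c (-0.39), Cacna1g (-0.24), Cacna1h (-0.25), Clcn3 (-0.024), Clcn7 (-0.26), Kcnd3 (-0.33), Kcnj2 (-0.098) and Kcnk6 (-0.17). Upper quartile scaling turned Clcn7 (-0.049), Kcnk6 (-0.065) and Kcnq1 (-0.047), and limma-voom turned Kcnn2 (-0.015). Leaving out 1 library at a time gave ranges that crossed 0 for Cacna1g (-0.015 to 0.33), Cacna1h (-0.0005 to 0.40), Clcn7 (-0.0074 to 0.17), Kcnh2 (-0.19 to 0.78), Kcnip2 (-0.53 to 0.057), Kcnj3 (-0.074 to 0.68), Kcnk6 (-0.11 to 0.14), Kcnn2 (-0.59 to 0.63), Kcnq1 (-0.079 to 0.19) and Kcnt2 (-0.28 to 0.088).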
